A study of Mus musculus with 95 samples.

Results

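Protocadherins are cell-surface adhesion proteins of the cadherin superfamily, and 67 of the 54532 genes in the deposited mouse count table were protein-coding genes whose name starts with Pcdh and that do not lie on a sex chromosome. They comprised 14 alpha, 22 beta and 21 gamma genes, which stand in 3 neighbouring clusters on chromosome 18 (alpha 36930184 to 37187661, beta 37264938 to 37524479 and gamma 37661793 to 37841873, as the files give them), and 10 non-clustered genes on chromosomes 3, 5, 10, 14 and 18. The choice used names, biotype and chromosome and no measured value. After the filter on low counts 64 of the 67 could be tested, or 63 in the hippocampus of the Nex line. The genes that did not pass were Pcdha4, Pcdhga10 and the second of 2 entries that the files name Pcdha11 (ENSMUSG00000102206).

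Each alpha and gamma gene has its own promoter and its own large first exon, which codes for the outer part of the protein, and that exon is spliced to constant exons shared by the whole cluster, whereas each beta gene is a single exon. A neuron chooses a few of these promoters, with CTCF, cohesin and DNA methylation taking part, and the isoforms it shows on its surface bind only matching isoforms on other membranes, which lets its branches recognise and avoid one another. The C-type genes at the end of the alpha and gamma clusters (Pcdhac1, Pcdhac2, Pcdhgc3, Pcdhgc4 and Pcdhgc5) are used more constantly than the others, and the non-clustered protocadherins act in cell sorting, axon growth and synapses.

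Bulk RNA sequencing was done on tissue of C57BL/6 mice that had received no treatment, from 2 regions: 47 libraries of dorsal hippocampus and 48 of the bed nucleus of the stria terminalis. The lines were FKBP51-Nex-Cre and FKBP51-Dlx-Cre, each with wild-type and knockout males and females. FKBP51 is the stress-related co-chaperone encoded by Fkbp5. The Nex driver is active in glutamatergic forebrain neurons and the Dlx driver in GABAergic forebrain neurons, so a knockout in either line leaves the gene in the other cells of the tissue. Together this gave 16 groups, 15 of 6 libraries and 1 of 5 (hippocampus of male Nex knockouts). The ages of the mice and the alleles carried by the wild types are not given in the sources used here. The labels do not tie each library to a separate animal, so the p-values measure the spread between these libraries. In bulk tissue, fewer cells of a type and less RNA per cell cannot be told apart.

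Library totals ran from 19589425 to 31236974 counts (median 22418677), and the 67 protocadherins held 0.0457% to 0.198% of a library's counts. Levels are given as counts per 1000000 (CPM) of a library total scaled by the trimmed mean of M values (TMM) method. Only the levels of Fkbp5, Xist and the Y-linked genes in this paragraph are CPM of the library total without that scaling. Fkbp5 itself was at 18.5 to 37.6 CPM in the hippocampus of male Nex knockouts against 45.2 to 58.2 CPM in their wild types, and at 19.5 to 34.1 against 51.0 to 62.3 CPM in the females. In the bed nucleus of Dlx knockouts it was at 4.94 to 8.52 against 32.4 to 37.5 CPM in males, and at 5.39 to 12.6 against 24.8 to 30.9 CPM in females. In the bed nucleus of the Nex line and the hippocampus of the Dlx line the Fkbp5 ranges of knockouts and wild types overlapped. The levels of Xist and the Y-linked genes matched the labelled sex in 95 of 95 libraries.

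The 3 libraries with the fewest detected genes, all of the Dlx line, also stood apart in their protocadherins. They are named by their titles, which code line (N or Dl), region (D or B), sex, genotype (W or K) and a number. In the hippocampus of a female knockout (Dl_D_F_K_8, 17863 genes detected) the alpha genes summed to 0.605 CPM, against 72.7 to 94.8 CPM in the other 5 libraries of its group, the gamma genes to 21.3 against 349 to 420 CPM, and the beta genes to 82.0 against 212 to 231 CPM. A bed nucleus library of a male knockout (Dl_B_M_K_639, 23552 genes detected) had an alpha sum of 19.2 against 50.8 to 59.6 CPM. The alpha sum was 29.4 against 75.4 to 94.2 CPM in a hippocampal library of a male wild type (Dl_D_M_W_641, 24118 genes detected). Counts of called members that these libraries move are given below with and without them. Values of single members in the Dlx line mostly come from the fits that include them. Of the results for named members refitted without all 3, 80 kept their status, 11 were called only then and 1 lost its call. Members not called in the Dlx line are to be read with that limit.

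The counting bears differently on the families. Each alpha gene overlaps exons of 13 to 16 other genes and each gamma gene of 25 to 26, on either strand, shared 3′ exons included. The median share of exonic length that no other gene overlaps was 46.4% for alpha, 54.8% for gamma and 100% for beta and non-clustered genes. The sources used here do not say whether reads in shared exons were counted. Pcdhga10 had 0 unshared bases and a mean count of 2.01 per library, against a median over the gamma genes of 286. Pcdha4 had 404 unshared bases and a mean count of 3.53, against a median over the alpha genes of 69.3. These genes thus received almost no counts from the exons they share. For the other alpha and gamma genes this was not tested, so their levels are uncertain to that extent. The name Pcdha11 covers 2 entries, and the one with the counts (ENSMUSG00000007440, mean count 71.6) starts at 37005203, where RefSeq places Pcdha10. It is named with its identifier here.

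The clearest differences in protocadherin expression lay between the regions, and for 4 of the non-clustered genes the promoters could be read from RefSeq (GRCm38.p6, 250 bases before to 50 after the start). RefSeq's table held promoters of 8 members, all non-clustered. Those shown belong to members with 1 start that lies within 1000 bases of the start in the files and with a mean regional difference of at least 0.8 on the log2 scale: Pcdh20 and Pcdh8, which were higher in the hippocampus, and Pcdh10 and Pcdh18, which were higher in the bed nucleus. Capitals mark CCAAT (or ATTGG, the same box read on the other strand), TATAAA and the half-site TGACG of the cAMP response element, on either strand (TTTATA and CGTCA on the other).
Pcdh20, chr14:88471347-88471646, minus strand: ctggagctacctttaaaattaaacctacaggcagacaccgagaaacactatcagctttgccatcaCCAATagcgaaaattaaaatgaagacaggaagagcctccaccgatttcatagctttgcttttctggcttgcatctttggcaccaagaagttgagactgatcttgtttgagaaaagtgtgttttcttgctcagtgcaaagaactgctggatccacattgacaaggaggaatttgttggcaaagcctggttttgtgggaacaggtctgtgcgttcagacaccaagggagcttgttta
Pcdh8, chr14:79771263-79771562, minus strand: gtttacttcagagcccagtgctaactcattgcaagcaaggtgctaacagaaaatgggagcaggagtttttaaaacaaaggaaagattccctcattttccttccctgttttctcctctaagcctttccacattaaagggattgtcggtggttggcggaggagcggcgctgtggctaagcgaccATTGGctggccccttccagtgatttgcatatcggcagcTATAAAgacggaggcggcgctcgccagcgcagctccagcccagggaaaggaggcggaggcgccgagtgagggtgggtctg
Pcdh10, chr3:45378148-45378447, plus strand: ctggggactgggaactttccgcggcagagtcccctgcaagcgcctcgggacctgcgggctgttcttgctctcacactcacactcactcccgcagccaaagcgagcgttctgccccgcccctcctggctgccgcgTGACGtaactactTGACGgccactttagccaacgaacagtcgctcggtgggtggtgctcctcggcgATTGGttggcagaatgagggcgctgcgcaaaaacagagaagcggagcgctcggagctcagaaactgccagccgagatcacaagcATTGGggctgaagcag
Pcdh18, chr3:49757267-49757566, minus strand: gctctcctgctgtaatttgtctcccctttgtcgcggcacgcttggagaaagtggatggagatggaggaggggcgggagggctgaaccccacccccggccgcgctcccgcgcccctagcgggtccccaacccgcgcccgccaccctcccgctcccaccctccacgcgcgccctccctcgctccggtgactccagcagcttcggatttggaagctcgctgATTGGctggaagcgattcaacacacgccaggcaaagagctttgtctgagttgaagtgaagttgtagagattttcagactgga

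The promoters differed in base composition. That of Pcdh20 was 43.7% G and C with 4 CG sites, whereas those of Pcdh8, Pcdh10 and Pcdh18 were 54.3%, 62.3% and 63.0% G and C with 14, 24 and 23 CG sites, against a median of 7 CG sites over all 32851 promoters of the table. The CCAAT box began 68 bases before the start in Pcdh8, 185 before in Pcdh20 and 32 before in Pcdh18, and Pcdh10 held 2, of which 1 began 50 bases before its start. A TATAAA stood 30 bases before the start of Pcdh8 alone among the 4. Pcdh10 was the only one of the 4 with TGACG, at 116 and 103 bases before its start. CCAAT was found in 37.4%, TATAAA in 13.6% and TGACG in 20.8% of all promoters, so single matches are common. The motifs were chosen after the sequences were seen, and none of the 9 promoters of members held the full cAMP response element TGACGTCA (1.79% of all promoters), the E-box CAGATG (17.2%) or the homeodomain core TAATTA (5.29%).

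The first comparison set the dorsal hippocampus against the bed nucleus in wild types, once per line and sex. Between 19 and 44 of the 64 tested protocadherins differed (quasi-likelihood test in edgeR, p adjusted by Benjamini-Hochberg over all genes tested and under 0.05). In Nex males 34 were called (18 higher in the hippocampus and 16 lower), where 35.7% of all genes tested were called. In Nex females the count was 44 (26 higher and 18 lower), with 52.8% of all genes called. Dlx males had 31 (18 higher and 13 lower) at a background of 46.7%, and Dlx females 19 (12 higher and 7 lower) at a background of 30%. As shares of the 64 tested members these are 53.1%, 68.8%, 48.4% and 29.7%, above the background in the Nex line and near it in the Dlx line.

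The Dlx female counts rested on 1 library. Without the female knockout hippocampal library Dl_D_F_K_8, which shares their estimate of spread, 34 members were called in wild-type Dlx females (25 higher and 9 lower), and the share of all genes called rose with them to 46.5%. Leaving out all 3 libraries with few detected genes gave 40 in wild-type Dlx males (27 higher and 13 lower), where 53.9% of all genes were then called.

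Over the 4 wild-type comparisons 27 members were called higher in the hippocampus at least once, 20 were called lower at least once, 17 were never called and 0 were called in both directions. As shares of the 64 members these are 42.2%, 31.2% and 26.6%, against 31.7%, 33.1% and 35.3% of the 18128 genes tested in all 4 comparisons. The 10 called higher in 4 of 4 were Pcdha12, Pcdhac1, Pcdhb3, Pcdhb4, Pcdhb5, Pcdhb7, Pcdhb9, Pcdhga12, Pcdh20 and Pcdh1. Pcdhga7, Pcdhgc4, Pcdh15, Pcdh10, Pcdh18 and Pcdh7 were called lower in 4 of 4. Calls in 4 of 4 were thus 15.6% of members higher and 9.38% lower, near the 10.9% and 11.2% of all genes. The families leaned in different directions: the median over a family's tested members of the mean log2 difference was 0.48 for alpha, 0.23 for beta, -0.28 for gamma and -0.28 for the non-clustered genes, while the median over all genes lay between -0.02 and 0.01 in the 4 comparisons.

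Cell-type markers moved with the same contrast. All 7 glutamatergic markers were called higher in the hippocampus in 4 of 4 wild-type comparisons (summed level 5238 to 9550 CPM in hippocampal and 688 to 1973 CPM in bed nucleus libraries), and 6 of 7 GABAergic markers were called lower (358 to 880 against 1700 to 3224 CPM). The 6 oligodendrocyte markers were called lower in 4 of 4 (2240 to 8293 against 8290 to 17546 CPM), as were the 6 striatal markers (45.7 to 142 against 67.3 to 3821 CPM). The 3 markers of oligodendrocyte precursors were also lower in 4 of 4 (54.3 to 130 against 117 to 209 CPM), and so were the microglial genes Cx3cr1 and Csf1r (168 to 301 against 214 to 417 CPM for the summed microglial list). Of 6 markers of dentate granule cells, 5 were higher in 4 of 4 (224 to 980 against 62.8 to 229 CPM). No marker of these lists was at 0 in all libraries of a group. Their part in the protocadherin differences was not tested.

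Pcdh20 showed the largest regional difference of any member. In Nex males its lowest, median and highest levels were 121, 130 and 149 CPM in the hippocampus against 11.6, 14.2 and 24.9 CPM in the bed nucleus. Nex females had 117, 143 and 160 against 13.6, 16.3 and 21.5 CPM. The groups were far apart in both sexes, and the log2 differences were 3.09 ± 0.17 (SE, adjusted p = 2.32e-12) and 3.08 ± 0.12 (adjusted p = 2.55e-16). In the Dlx line the levels were 103, 155 and 187 against 11.2, 15.9 and 18.2 CPM in males, and 93.0, 139 and 171 against 13.7, 17.5 and 24.9 CPM in females. Their log2 differences were 3.27 ± 0.14 and 2.85 ± 0.22 (adjusted p = 1.95e-15 and 5.9e-10). Over all 95 libraries, knockouts and low libraries included, every hippocampal library (52.8 CPM or more) lay above every bed nucleus library (24.9 CPM or less), and Pcdh20 was the only member of which this held. The share of all genes that separate in this way, over all libraries or among wild types as for members below, is not given here.

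Pcdh1, a non-clustered protocadherin of the delta subfamily, was the most abundant member per length and was also higher in the hippocampus. Its levels in wild-type females were 449, 521 and 615 CPM (lowest, median, highest) in the Nex line against 178, 210 and 247 CPM in the bed nucleus, and 520, 594 and 718 against 191, 209 and 230 CPM in the Dlx line. Males had 393, 444 and 494 against 166, 200 and 217 CPM in the Nex line, and 344, 453 and 546 against 167, 179 and 216 CPM in the Dlx line. No wild-type library of either region reached into the range of the other. The log2 differences were 1.31 ± 0.07 and 1.51 ± 0.17 in Nex and Dlx females, and 1.20 ± 0.11 and 1.25 ± 0.11 in the males (SE, largest adjusted p 3.25e-07).

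Pcdh8, or arcadlin, is induced by neuronal activity in the hippocampus and takes part in the removal of N-cadherin from synapses. It stood at 84.9, 115 and 126 CPM in the hippocampus of Nex males against 26.2, 38.7 and 66.7 CPM in the bed nucleus (log2 difference 1.36 ± 0.19, adjusted p = 4.92e-06). Nex females and Dlx males gave log2 differences of 1.16 ± 0.15 and 1.41 ± 0.17. In Dlx females the hippocampal levels spread widely, at 49.9, 96.5 and 193 CPM, and overlapped those of the bed nucleus at 46.1, 66.6 and 94.7 CPM. The difference there was 0.58 ± 0.27 and was not called (adjusted p = 0.119), nor was it without the low library (0.57, adjusted p = 0.0744).

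Pcdh10 went the other way. It is known from mice to be needed for the growth of striatal axons and for the elimination of synapses. Its lowest, median and highest levels in Nex males were 91.3, 111 and 128 CPM in the hippocampus against 268, 325 and 422 CPM in the bed nucleus, and in Nex females 98.7, 109 and 125 against 281, 319 and 373 CPM. The wild-type ranges of the regions did not meet in any line or sex, since the 24 hippocampal libraries ended at 180 CPM and the 24 bed nucleus libraries began at 227 CPM. Log2 differences were -1.62 ± 0.12 in Nex males, -1.56 ± 0.07 in Nex females, -1.48 ± 0.14 in Dlx males and -1.20 ± 0.21 in Dlx females (largest adjusted p 9.04e-05).

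Pcdh15, which forms the tip links of the inner ear's hair cells, was also lower in the hippocampus. Its 24 wild-type hippocampal libraries lay at 4.85 to 17.0 CPM (median 11.2) and the 24 bed nucleus libraries at 18.9 to 35.1 CPM (median 26.6), again with no overlap. The log2 differences ran from -1.02 ± 0.16 in Nex males to -1.54 ± 0.23 in Dlx females (largest adjusted p 2.44e-05). Pcdh18, which binds the reelin adaptor Dab1 in mice, was scarce in both regions, with 1.49 to 7.60 CPM (median 3.47) in wild-type hippocampus and 4.91 to 17.5 CPM (median 8.68) in wild-type bed nucleus. These ranges overlapped at their ends, and the differences, from -0.88 ± 0.27 in Nex males (adjusted p = 0.0128) to -1.72 ± 0.24 in Dlx females (adjusted p = 5.55e-06), were called in 4 of 4.

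Pcdh7, Pcdh17 and Pcdh9 were nearer to equal in the regions. Pcdh7 had 35.1 to 73.0 CPM (median 54.4) in wild-type hippocampus and 58.7 to 115 CPM (median 80.6) in wild-type bed nucleus, with log2 differences of -0.58 to -0.64 that were called in 4 of 4 (largest adjusted p 0.01). Pcdh17, which helps organise presynaptic terminals of corticobasal circuits in mice, was called lower only in females (-0.34 ± 0.11 in the Nex line, adjusted p = 0.00898, and -0.57 ± 0.18 in the Dlx line, adjusted p = 0.0213). The male differences were -0.26 ± 0.16 and -0.34 ± 0.17 (adjusted p = 0.21 and 0.117), and whether the sexes differ in this was not tested. Pcdh9 lay at 74.9 to 159 CPM in the hippocampus and 103 to 179 CPM in the bed nucleus of wild types and was called in 0 of 4, with differences of -0.11 to -0.28. Pcdh12, which is known from endothelial cells, did not exceed 1.03 CPM in any wild-type library and was called in 0 of 4.

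**Figure D1:**
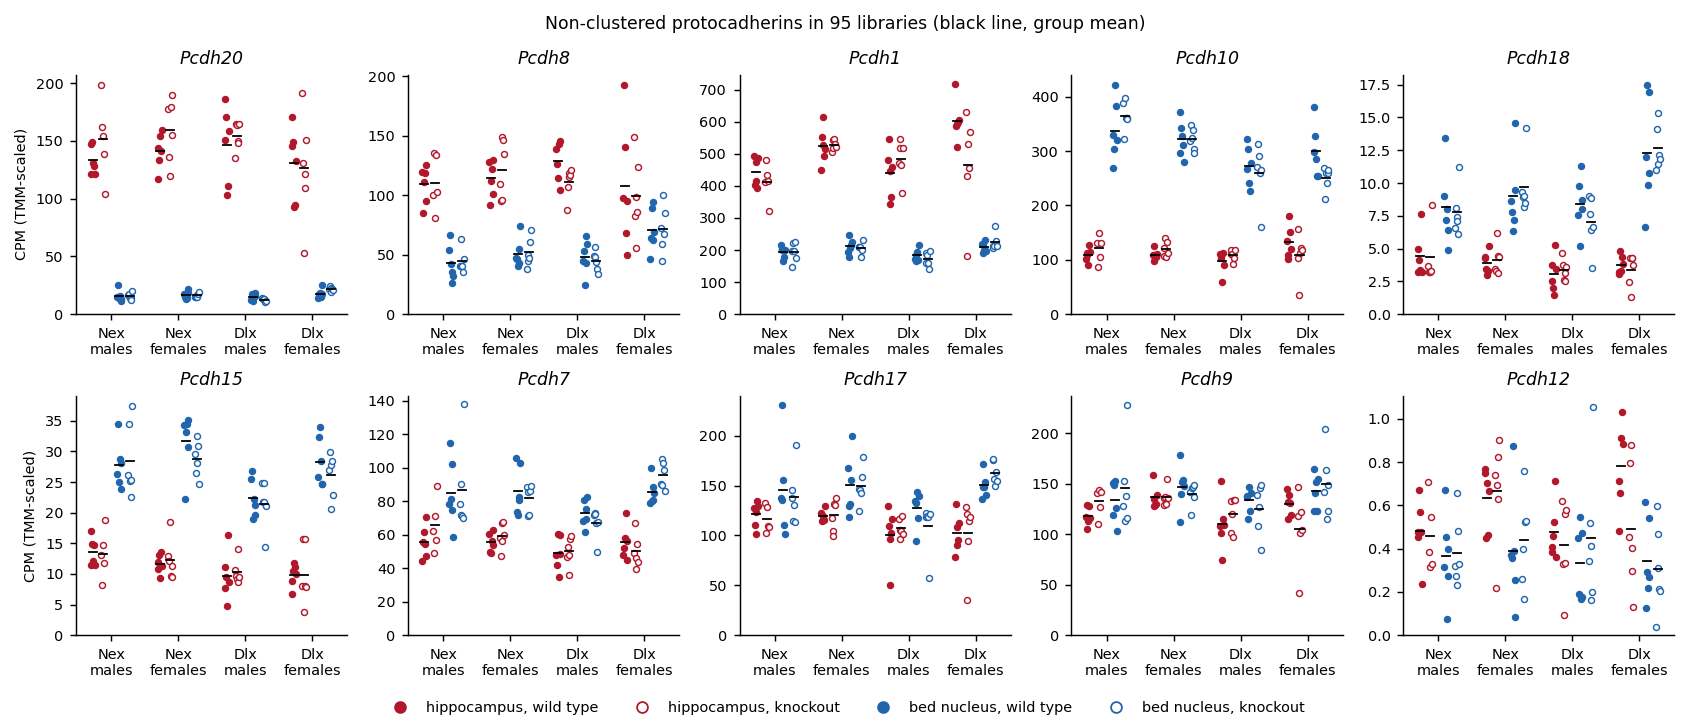
Level of each of the 10 non-clustered protocadherins (CPM, linear axis from 0) in every library by line and sex, hippocampus in red and bed nucleus in blue, wild types filled and knockouts open, with a black line at each group mean. Pcdh20 lies at 52.8 to 198 CPM in every hippocampal library and at 10.3 to 24.9 CPM in every bed nucleus library, and Pcdh10 is higher in the bed nucleus, with no overlap among wild types (up to 180 against 227 CPM or more).

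In the alpha cluster 6 of 12 tested genes were called higher in the hippocampus at least once in wild types, 0 lower and 6 never, where 31.7%, 33.1% and 35.3% of all genes were; the same shares stand behind the counts of the other clusters. The called genes sat mostly at the cluster's 3′ end, which holds the C-type genes: Pcdha9, Pcdha11 (ENSMUSG00000007440), Pcdha12, Pcdhac1 and Pcdhac2 were called, and of the 7 tested genes before them 1 was, Pcdha5. Pcdhac1 rested on few counts, at 3.12, 4.19 and 4.42 CPM in Nex females against 1.44, 1.69 and 1.95 CPM in the bed nucleus. It was higher in 4 of 4, by 0.61 ± 0.18 in Nex males to 1.36 ± 0.45 in Dlx females (log2, largest adjusted p 0.0244). Pcdha12 was higher in 4 of 4 by 0.55 ± 0.20 to 1.33 ± 0.44 (largest adjusted p 0.0366). Pcdha11 (ENSMUSG00000007440) differed by 0.47 to 1.36 and was called in Nex females and Dlx males.

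Pcdhac2, which serotonergic neurons of mice need to spread their axons evenly, was the most abundant alpha gene, with 11.8 CPM per kilobase of unshared exon over all libraries. In Nex females it had 39.4, 42.1 and 51.8 CPM in the hippocampus against 29.4, 31.4 and 35.0 CPM in the bed nucleus, and the groups did not overlap (0.44 ± 0.06, adjusted p = 1.53e-06). It was also called in Nex males (0.35 ± 0.08, adjusted p = 0.00208), but not in the Dlx line (0.37 ± 0.24 and 0.61 ± 0.48). The spread there included the libraries with few detected genes, among them the hippocampal value of 12.5 CPM in Dl_D_M_W_641. The lowest mean difference among alpha genes with at least 1 CPM belonged to Pcdha2, whose values of -0.25 to 0.08 were called in 0 of 4.

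In the beta cluster 11 of 22 genes were called higher in the hippocampus at least once, 4 lower and 7 never. The 5 that were higher in 4 of 4 (Pcdhb3, Pcdhb4, Pcdhb5, Pcdhb7 and Pcdhb9) lie within the first 9 genes of the cluster, whereas their neighbour Pcdhb6 was called lower in 3 of 4. Pcdhb9, the most abundant beta gene at 7.23 CPM per kilobase, had 24.8, 27.5 and 29.2 CPM in the hippocampus of Nex females against 16.2, 17.4 and 21.7 CPM in the bed nucleus. Of its 24 wild-type hippocampal libraries, 23 lay above every wild-type bed nucleus library, and the log2 differences were 0.58 ± 0.10 to 0.76 ± 0.09 (largest adjusted p 8.9e-05).

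Pcdhb3 had 8.03 to 15.7 CPM (median 11.3) in wild-type hippocampus and 3.80 to 9.29 CPM (median 6.60) in wild-type bed nucleus. Its differences were 0.66 ± 0.12 to 1.02 ± 0.18 (largest adjusted p 0.000154). Pcdhb2 was higher by 0.76 to 1.26 in 3 of 4, and in Dlx females by 0.87 ± 0.45 (adjusted p = 0.163). Pcdhb4 was higher by 0.61 to 0.99 in 4 of 4 (largest adjusted p 0.00316).

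Pcdhb6 was lower in the hippocampus, where it had 2.96, 3.78 and 6.04 CPM in Nex females against 4.97, 7.07 and 9.53 CPM in the bed nucleus (-0.82 ± 0.16, adjusted p = 0.00011). Its difference in Dlx females was -0.12 ± 0.19 and was not called. Pcdhb14 was called lower in males and females of the Nex line (-0.45 and -0.41) and had -0.15 and -0.11 in the Dlx line, and whether the lines differ in this was not tested. Pcdhb18 was called lower in Nex females (-0.48 ± 0.11). Pcdhb1, the scarcest beta gene at 0.174 CPM per kilobase, was called lower in Nex females (-1.38 ± 0.37, adjusted p = 0.00262), and did not exceed 1.22 CPM in any wild-type library.

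The gamma cluster held members that moved in both directions, 7 of 20 called higher at least once, 11 lower and 2 never. In order along the cluster, the first 4 genes (Pcdhga1, Pcdhga2, Pcdhga3 and Pcdhgb1) were called higher in 1 of 4 comparisons each. The next 12, from Pcdhga4 to Pcdhgb7, contained 9 called lower, 2 never called (Pcdhga8 and Pcdhga9) and the untested Pcdhga10. After them Pcdhga11 and Pcdhga12 were called higher. Apart from the named largest changes and C-type genes, these genes are listed for their order, which was noticed after their values were seen.

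Pcdhga7 lay in the middle of the lower stretch and changed most. Its lowest, median and highest levels were 7.61, 9.47 and 11.99 CPM in the hippocampus of Nex males against 18.3, 23.8 and 29.1 CPM in the bed nucleus, and 7.51, 10.6 and 12.1 against 17.3, 20.2 and 25.9 CPM in Nex females. No wild-type hippocampal library, at 12.1 CPM or less, reached the lowest wild-type bed nucleus library at 13.7 CPM. The log2 differences were -1.29 ± 0.13, -0.98 ± 0.12, -1.06 ± 0.18 and -0.92 ± 0.29 in Nex males, Nex females, Dlx males and Dlx females (largest adjusted p 0.0178). Pcdhga6, its neighbour, had log2 differences of -0.72 to -0.96 in the 3 comparisons in which it was called, and its value in Dlx females was -0.62 ± 0.45 (adjusted p = 0.343).

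On the other side, Pcdhga12 was higher in the hippocampus in 4 of 4, by 0.31 ± 0.11 to 0.70 ± 0.16 (largest adjusted p 0.0332). Its wild-type levels were 9.32 to 23.5 CPM (median 18.7) against 8.81 to 17.4 CPM (median 12.6), and they overlapped. Pcdhga1 was called in Nex females (0.58 ± 0.14, adjusted p = 0.00124) and had 0.38 to 0.73 in the other 3.

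**Figure D2:**
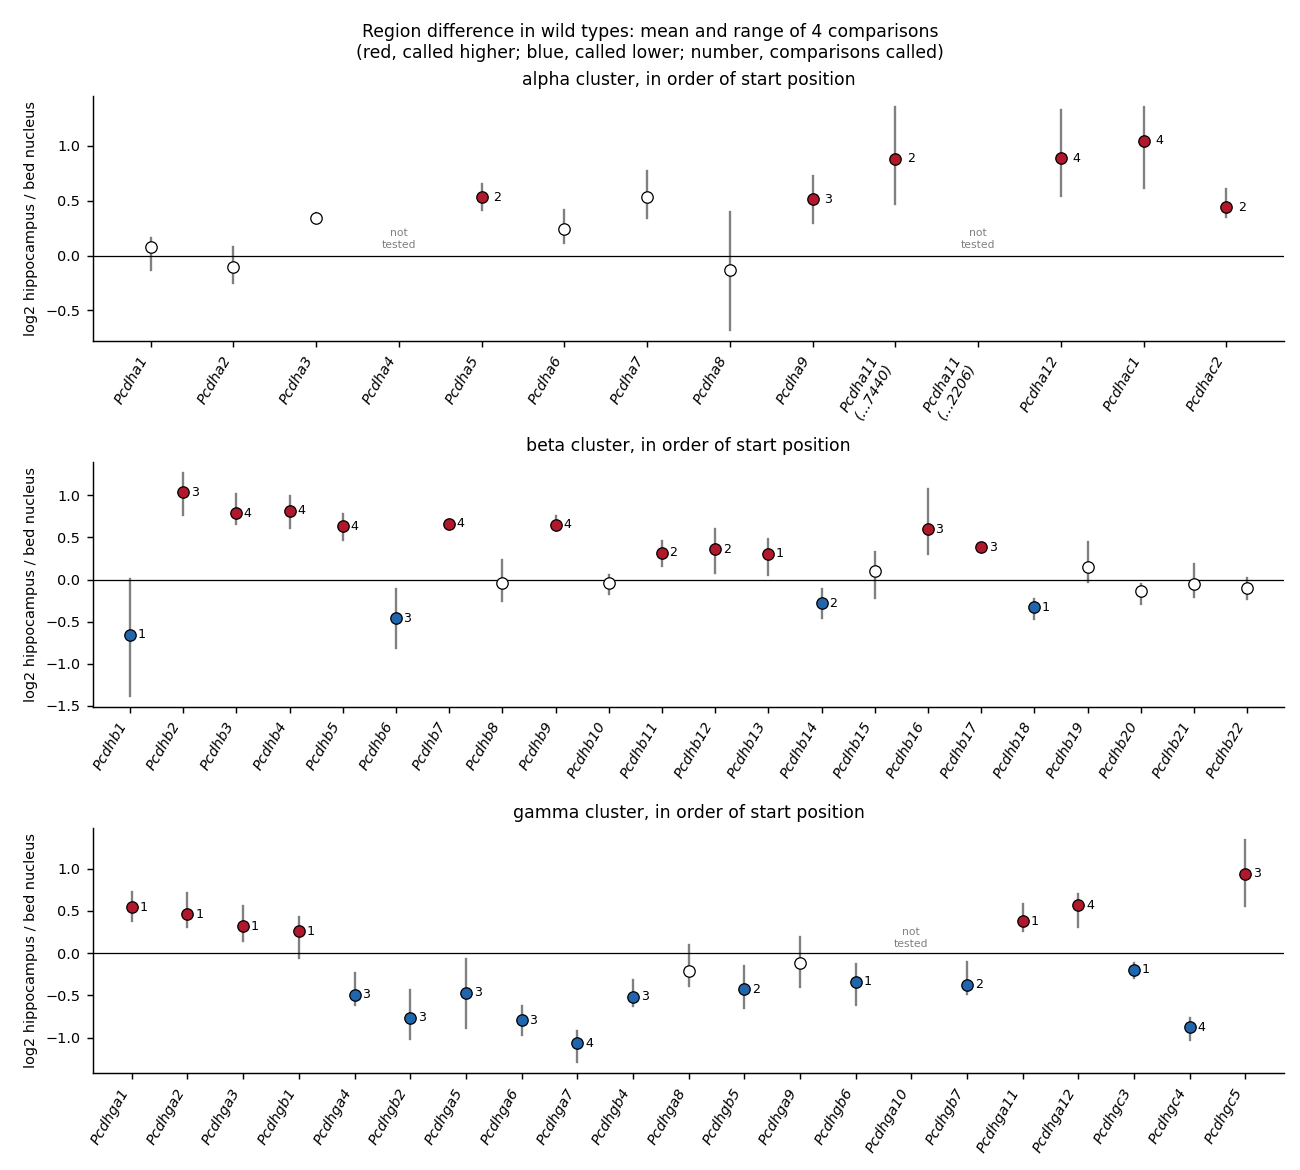
Mean (points) and range (bars) of the log2 difference between hippocampus and bed nucleus over the 4 wild-type comparisons for each clustered protocadherin, in order of start position; red points were called higher in the hippocampus, blue points lower, open points never, and numbers give the comparisons called. The gamma genes from Pcdhga4 to Pcdhgb7 have means below 0, and the 4 genes before and 2 after them above, with the lowest values at Pcdhga7 (-0.92 to -1.29).

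The 3 C-type gamma genes, which lie next to each other, differed in opposite directions. Pcdhgc4, which is required for the survival of neurons in mice, was lower in the hippocampus in 4 of 4. It had 10.9, 12.7 and 19.99 CPM in Nex females against 17.5, 24.1 and 32.3 CPM in the bed nucleus, ranges that overlapped (-0.78 ± 0.17, adjusted p = 0.000375). The other 3 differences were -0.76 ± 0.22, -0.93 ± 0.20 and -1.03 ± 0.31 (largest adjusted p 0.0129).

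Pcdhgc5, which is known to bind GABA-A receptors at inhibitory synapses, was higher in the hippocampus. Its levels in Nex females were 105, 110 and 131 CPM against 37.7, 58.1 and 93.8 CPM, and in Dlx females 107, 125 and 144 against 33.5, 40.1 and 85.0 CPM. The differences were 0.92 ± 0.14 and 1.34 ± 0.44 in these females, and 0.93 ± 0.20 in Dlx males (largest adjusted p 0.0226). In Nex males the bed nucleus libraries spread from 25.6 to 88.6 CPM, and the difference of 0.56 ± 0.22 was not called (adjusted p = 0.0552). Pcdhgc3, which is known to promote dendrite branching, was nearly level, at 22.1 to 37.3 CPM in wild-type hippocampus and 28.6 to 40.4 CPM in wild-type bed nucleus. It was called lower in Nex males (-0.25 ± 0.09, adjusted p = 0.0427), with -0.11 to -0.29 in the other 3.

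Compared per kilobase of exon that no other gene overlaps, over the 95 libraries, Pcdh1 had the highest level (39.0 CPM per kilobase), followed by Pcdh8 (20.2), Pcdh9 (19.4), Pcdhgc3 (17.5) and Pcdhgc5 (17.4). Pcdh20 moved furthest within this order between regions, with 26.0 CPM per kilobase in the hippocampus and 2.99 in the bed nucleus. Pcdh10 had 7.20 in the hippocampus and 19.3 in the bed nucleus. Among the clustered genes, Pcdhgc5 (22.6 CPM per kilobase) was above Pcdhgc3 (16.0) in the hippocampus and below it in the bed nucleus (12.2 against 19.02). Pcdhgc4 had 3.55 and 6.71, and Pcdhga7 3.83 and 7.81. Pcdh12 was the lowest of the non-clustered genes at 0.0766. For alpha and gamma genes this scale divides all the reads deposited for a gene by its own exons. The sources do not say whether these included reads from shared exons, from which Pcdhga10 had almost none.

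**Figure D3:**
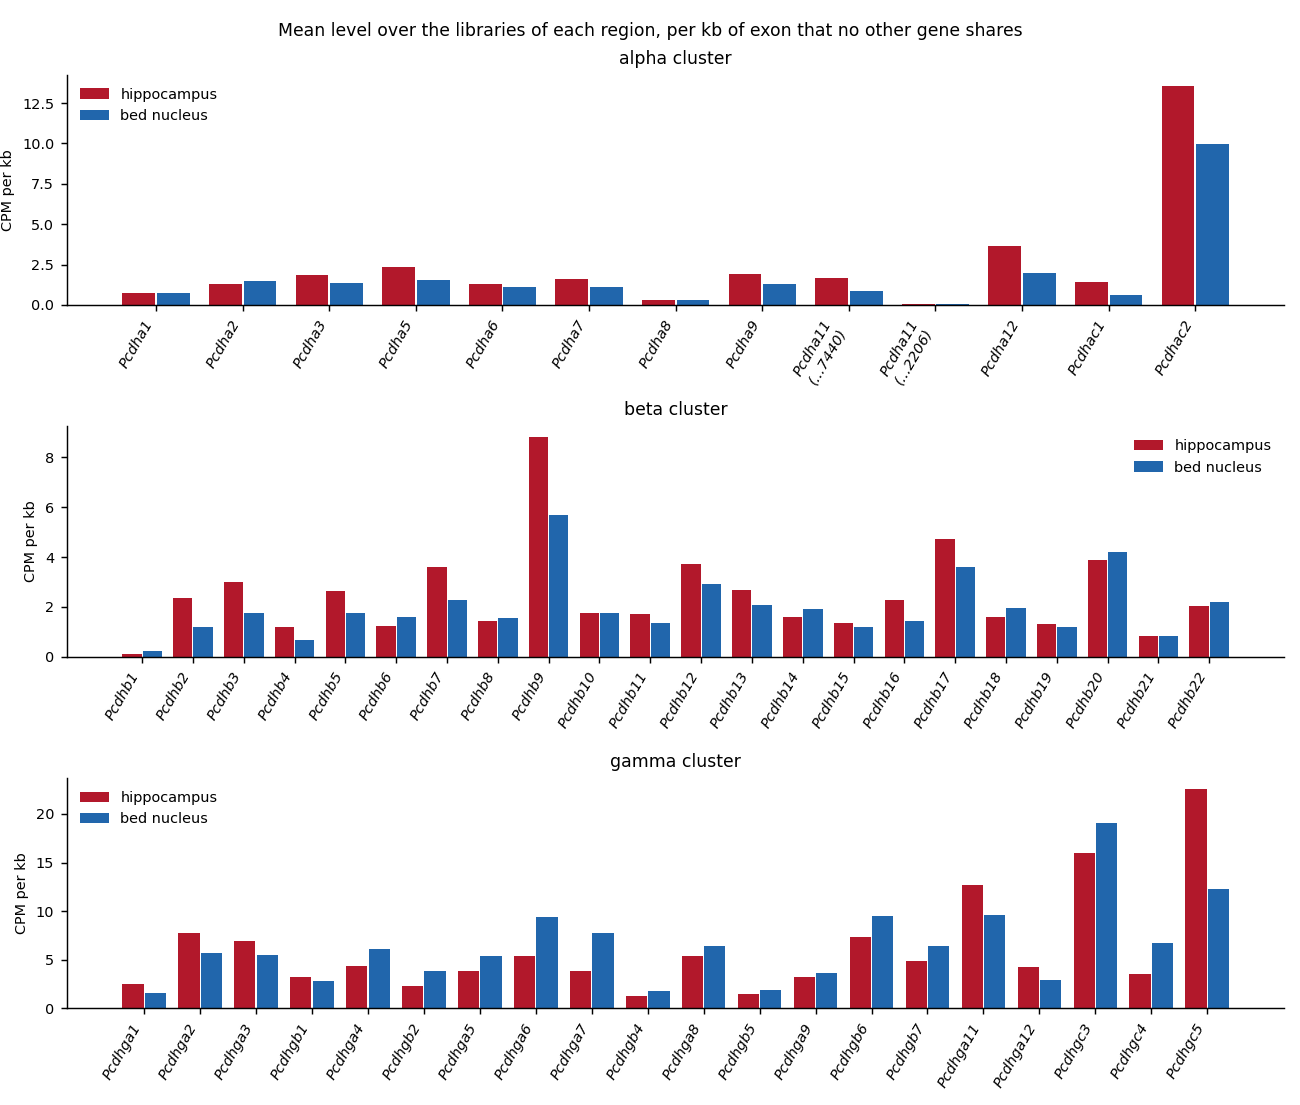
Mean level of each clustered protocadherin with at least 1000 unshared exon bases (bars, CPM per kilobase of unshared exon) over the hippocampal libraries in red and the bed nucleus libraries in blue. Pcdhgc5 leads the gamma cluster in the hippocampus (22.6) and Pcdhgc3 in the bed nucleus (19.02), and Pcdhac2 and Pcdhb9 stand above the other alpha and beta genes in both regions.

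By family, summed levels were higher in the hippocampus for the alpha, beta and non-clustered genes. Group means of the alpha sum ran from 70.0 to 91.7 CPM over the 8 hippocampal groups and from 48.5 to 62.6 CPM over the 8 bed nucleus groups. The beta sums were 196 to 223 against 155 to 187 CPM, and the non-clustered sums 1071 to 1277 against 821 to 1027 CPM. In these 3 families the ranges of group means did not overlap. The gamma sums did, at 304 to 393 against 295 to 384 CPM. Within the non-clustered sum, Pcdh1 and Pcdh20 averaged 489 and 143 CPM over hippocampal libraries against 200 and 16.4 CPM over bed nucleus libraries. Of the 10 non-clustered genes, 3 were called higher in the hippocampus at least once in wild types and 5 were called lower. The C-type genes summed to 165 to 225 CPM in hippocampal and 130 to 160 CPM in bed nucleus groups.

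**Figure D4:**
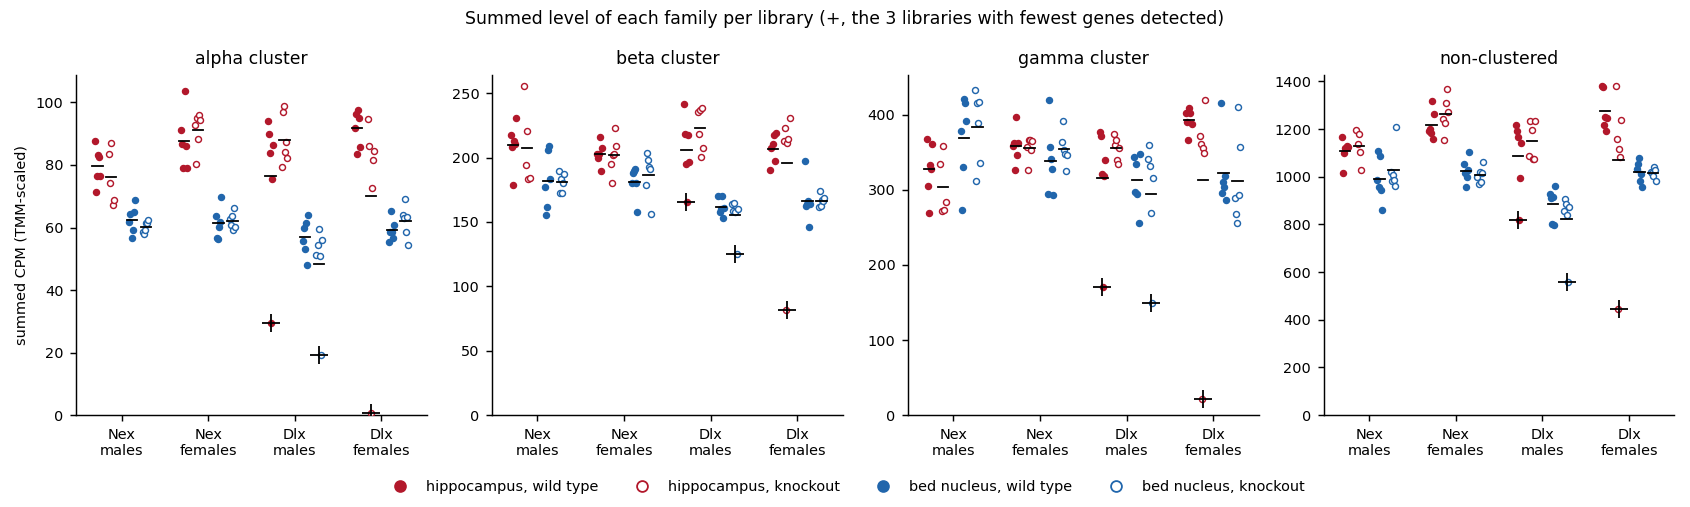
Summed level (CPM) of the alpha, beta, gamma and non-clustered protocadherins in each library by line and sex, hippocampus in red and bed nucleus in blue, wild types filled and knockouts open, with group means as black lines and the 3 libraries with the fewest detected genes marked by crosses. Hippocampal group means lie above those of the bed nucleus in all families but gamma, and Dl_D_F_K_8 lies at the bottom of its group (alpha 0.605 and gamma 21.3 CPM).

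The same regional contrast was made in the knockouts, in other libraries. In Nex males 39 members were called in knockouts (20 higher and 19 lower, background 36.1%), and 32 of these 39 were called the same way among the 34 of the wild types. Nex females had 42 (23 higher and 19 lower, background 51%), of which 37 were shared with the 44 of the wild types, and Dlx males 39 (31 higher and 8 lower, background 54.3%), of which 26 were shared with 31. Dlx females had 19 (9 higher and 10 lower, background 36.3%), of which 16 were shared with 19, and 36 (24 higher and 12 lower, background 44.6%) without library Dl_D_F_K_8. Without the 3 libraries with few detected genes Dlx male knockouts had 43 (31 higher and 12 lower, background 57.6%). The median log2 difference over the members was 0.54 in knockouts and 0.15 in wild types of Dlx males, and -0.01 and 0.27 in Dlx females; it was 0.41 and 0.32 in the males without the 3 libraries, and 0.19 and 0.26 in the females without Dl_D_F_K_8. In these 4 pairs of lists 0 members were called in opposite directions. Wild types and knockouts of a line and sex share 1 estimate of spread. The overlap between the genotypes over all genes is not given here, so these overlaps cannot be read as particular to protocadherins.

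Across all 8 comparisons, Pcdhb3, Pcdhb5, Pcdhb7, Pcdhb9, Pcdh20 and Pcdh1 were called higher in the hippocampus and Pcdhga7, Pcdhgc4, Pcdh15, Pcdh10 and Pcdh18 lower. The share of all genes called in all 8 is not given here, so this list has no background. Pcdh20 differed in knockouts by 3.29 ± 0.18 in Nex males, 3.29 ± 0.13 in Nex females, 3.62 ± 0.14 in Dlx males and 2.53 ± 0.21 in Dlx females (largest adjusted p 3.43e-09). The difference of these differences was tested as well. By edgeR 0 members passed for the interaction of region and genotype in any line and sex (background 0%, 0.00529%, 0.0107% and 0.0054% in Nex males, Nex females, Dlx males and Dlx females). There were 0 to 3 at an unadjusted p under 0.05, where 1.87% to 12.4% of all genes were. DESeq2 also called 0.

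The study's central comparison, knockout against wild type within line, region and sex, called 0 protocadherins in 8 of 8 comparisons by edgeR's quasi-likelihood test. Of all genes tested, 0.0106% were called in either sex for the Nex hippocampus, 0.00539% for the Dlx bed nucleus and 0% in the other 4 comparisons. At an unadjusted p under 0.05 there were 0 to 3 members per comparison, where 1.39% to 10.6% of all genes were; the share of all genes was 9.93% in the Nex hippocampus of males, with 3 of 63 members, and 10.6% in the Dlx hippocampus of females, with 0 of 64. DESeq2 called 0 as well, with 0 to 4 at the unadjusted threshold, and limma with library quality weights called 0, with 3 to 13. The shares of all genes at that threshold under these methods are not given here, so these counts cannot be set against them. Averaged over the sexes, 0 members were called in any line and region (background 0.0106% for the Nex hippocampus, 0.00539% for the Dlx bed nucleus and 0% elsewhere). At an unadjusted p under 0.05 by edgeR there were 0 to 4, where 2.07% to 10.5% of all genes were. The interaction of sex and genotype gave 0 calls (background 0%). At the unadjusted threshold it gave 0 to 5 members, where 1.14% to 8.88% of all genes were. The 5 were in the Dlx bed nucleus, which had the 8.88%. The interaction of line and genotype, which addresses opposed effects in the lines, also gave 0 calls (background 0% and 0.00516% in hippocampus males and females and 0.00515% in the bed nucleus of both). It gave 0 to 3 members at an unadjusted p under 0.05 by edgeR, where 2.20% to 9.40% of all genes were.

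The intervals bound what was missed. The 95% interval of the knockout difference lay within 1 log2 unit on either side of 0 for 63 of 63 members in Nex hippocampus males and 62 of 63 in females, and for 64 and 63 of 64 in the Nex bed nucleus. It did so for 60 of 64 in each sex in the Dlx bed nucleus. In the Dlx hippocampus, which holds library Dl_D_F_K_8, only 40 of 64 in males and 34 of 64 in females were so bounded. A change of 1 log2 unit was not excluded for the other members there. The half-width of the interval itself was under 1 for 60 of 64 in either sex. The median difference over the members was -0.25 in Dlx hippocampus females, or -0.03 without Dl_D_F_K_8, and -0.11 to 0.13 in the other 7 comparisons.

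The members with the smallest p-values show the size of what was seen. In the hippocampus of Nex males, Pcdhga9 was at 8.52 ± 1.69 CPM (SD, n = 5) in knockouts and 11.1 ± 1.36 CPM (n = 6) in wild types. This is a log2 difference of -0.38 ± 0.12 (adjusted p = 0.334 by edgeR, exact permutation p = 0.026). Pcdhb2 (-0.41 ± 0.17) and Pcdh9 (0.17 ± 0.07) followed there with adjusted p of 0.422 and 0.456. In the bed nucleus of Nex males the C-type Pcdhgc3 was at 38.3 ± 2.01 CPM in knockouts and 33.2 ± 2.98 CPM in wild types (0.20 ± 0.06, adjusted p = 0.9998 by edgeR), followed by Pcdhb15 (-0.34 ± 0.13) and Pcdhb12 (0.32 ± 0.12). In Nex females the leading members were Pcdha5, Pcdhgb5 and Pcdhb12 in the hippocampus (0.38, 0.26 and -0.24) and Pcdhgb2, Pcdhb20 and Pcdha5 in the bed nucleus (0.29, 0.19 and 0.23), all unadjusted p over 0.05.

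In the Dlx line the bed nucleus of males held the smallest p-value, for Pcdhb21 at 1.88 ± 0.62 CPM in knockouts and 3.24 ± 0.57 CPM in wild types (-0.78 ± 0.24, adjusted p by edgeR 0.874). Pcdh20 came next there at -0.28 ± 0.13, and in females it was among the 3 smallest at 0.27 ± 0.13, besides Pcdhb13 (-0.36) and Pcdh10 (-0.26). For Pcdh20 the interaction of sex and genotype was -0.55 ± 0.18 and did not pass (edgeR adjusted p = 0.53, unadjusted 0.00525). In the Dlx hippocampus Pcdhb15, Pcdhb13 and Pcdhga3 led in males (0.45, 0.40 and 0.46). In females it was Pcdh1, at 465.9 ± 158 CPM in knockouts and 603 ± 64.1 CPM in wild types (-0.37 ± 0.18, edgeR adjusted p = 0.474), or -0.21 without library Dl_D_F_K_8, and then Pcdhgb2 (-0.55) and Pcdh12 (-0.65), which were at -0.32 and -0.91 without that library.

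**Figure D5:**
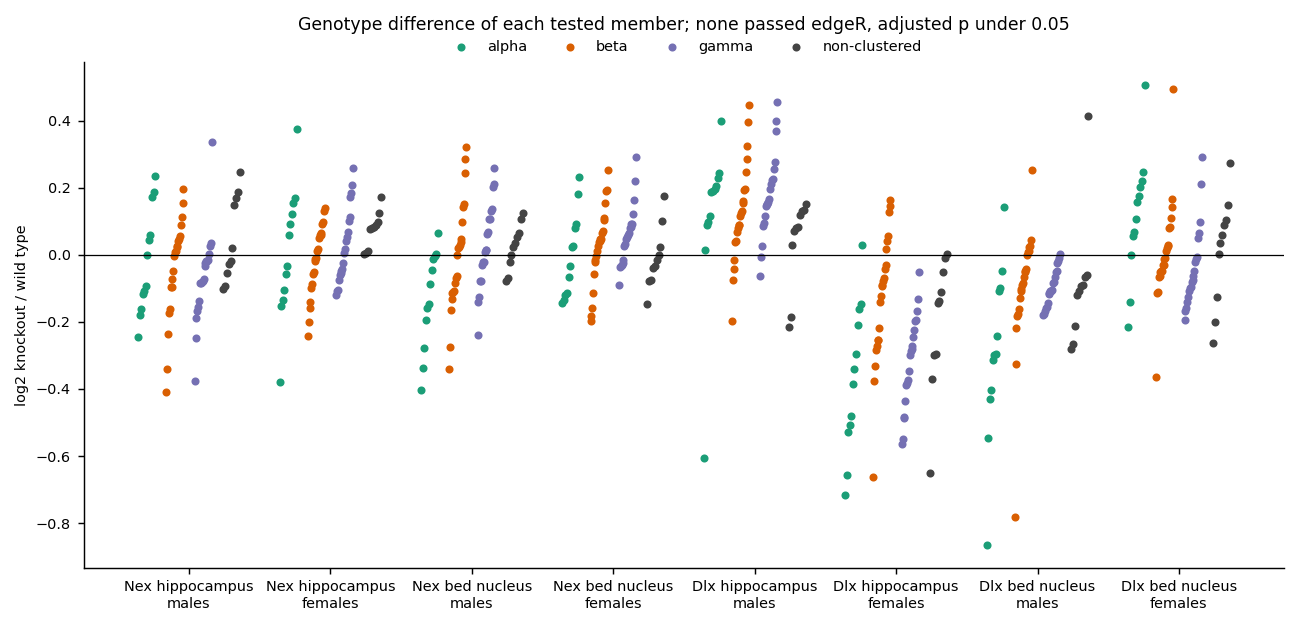
Log2 difference between knockout and wild type for every tested member (1 point each, sorted and coloured by family) in each line, region and sex. No member passed the threshold, and the values run from -0.86 to 0.51.

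Males and females were compared in wild types, and edgeR called 0 members in each line and region (background 0.117% and 0.0535% in the Nex hippocampus and bed nucleus, and 0.23% and 0.0701% in the Dlx ones). At an unadjusted p under 0.05 there were 6 in the Nex hippocampus, 3 in the Nex bed nucleus, 3 in the Dlx hippocampus and 8 in the Dlx bed nucleus, where 6.67%, 4.14%, 12.1% and 9.19% of all genes were under it. DESeq2 called 0 too, with 6, 4, 3 and 9 at that threshold. Pcdhga5 was at 8.36 ± 0.62 CPM in males and 11.2 ± 0.999 CPM in females of the Nex hippocampus (n = 6 each), with no overlap. Its log2 difference was -0.41 ± 0.12 (edgeR adjusted p = 0.355, exact permutation p = 0.00216, the smallest that 6 against 6 can give). In the Dlx hippocampus the same gene was at 8.40 ± 2.66 CPM in males and 12.5 ± 1.53 CPM in females (-0.57 ± 0.44, adjusted p by edgeR 0.714).

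Pcdh1 was at 440 ± 74.8 CPM in males and 603 ± 64.1 CPM in females of the Dlx hippocampus (-0.45 ± 0.18, edgeR adjusted p = 0.301). Without the female knockout library Dl_D_F_K_8, which shares their estimate of spread, edgeR called 3 members in that comparison: Pcdh1 (-0.44, adjusted p = 0.0246), Pcdhga5 (-0.56, adjusted p = 0.0436) and Pcdhga4 (-0.51, adjusted p = 0.0409). That refit still held the male wild-type library Dl_D_M_W_641. Without all 3 libraries with few detected genes, Pcdh1 (-0.37, edgeR adjusted p = 0.0333) and Pcdhga5 (-0.42, edgeR adjusted p = 0.0490) were called. Pcdhga4 was not called then, and Pcdhb16 was called higher in males (0.79, edgeR adjusted p = 0.0179). The background of 0.23% belongs to the fit with all libraries, so these calls cannot be set against it. The member with the smallest p in the Nex bed nucleus was Pcdhb2 (3.10 ± 0.92 against 4.42 ± 0.36 CPM in females, edgeR adjusted p = 0.937). In the Dlx bed nucleus it was Pcdh15 (22.4 ± 3.18 against 28.3 ± 4.03 CPM, edgeR adjusted p = 0.336).

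Between the lines, wild types differed in 1 member. In the bed nucleus of males, Pcdhb19 was at 10.96 ± 2.20 CPM in the Nex line and 6.50 ± 1.37 CPM in the Dlx line (n = 6 each). The log2 difference was 0.76 ± 0.16 (edgeR adjusted p = 0.02, exact permutation p = 0.00433), where 0.597% of all genes tested were called. The call ended when only these 2 groups were fitted. In the bed nucleus of females 0 members were called (background 0.695%, 8 at an unadjusted p under 0.05 by edgeR and 8 by DESeq2). By edgeR 10.8% of all genes were under that unadjusted threshold. There Pcdhb16 led at 9.41 ± 1.09 CPM in the Nex line against 6.35 ± 1.31 CPM in the Dlx line (0.56 ± 0.17, edgeR adjusted p = 0.128). In the hippocampus 0 were called in either sex (background 0%, 2 at an unadjusted p under 0.05 in each by edgeR, 2 and 3 by DESeq2), led by Pcdhb9 in males (-0.27 ± 0.11) and Pcdhb16 in females (0.57 ± 0.23). The line cannot be told apart from the cohort.

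Genes that act with protocadherins were counted in the same 4 wild-type comparisons, in which 35.7%, 52.8%, 46.7% and 30% of all genes were called. Of 24 binding and signalling partners, 10 were called higher in the hippocampus and 4 lower in wild-type Nex males, 15 and 5 in Nex females, 12 and 4 in Dlx males, and 12 and 2 in Dlx females. Among them Dab1, the reelin adaptor, was higher by 1.37 to 1.51, the kinase Prkca by 1.39 to 1.88, and Wasf1 and Cyfip1 of the actin-regulating WAVE complex by 1.36 to 2.14 and 0.56 to 0.67 in 4 of 4, while Wasf2 of the same complex was lower in 4 of 4 by log2 differences of -0.45 to -0.79. Of 20 genes for promoter choice and chromatin, 4, 11, 11 and 1 were called higher and 1, 3, 3 and 1 lower in the same order of comparisons, so that the 5 of 20 in Nex males and 2 of 20 in Dlx females lay below the share of all genes. Dnmt3a, a DNA methyltransferase that acts on clustered protocadherin promoters, was lower in 4 of 4, with log2 differences of -0.33 to -0.50. Of 37 tested cadherins outside the protocadherins, 15, 17, 14 and 13 were called higher and 13, 13, 16 and 8 lower, with Clstn2 (2.15 to 2.54) and Cdh24 (1.59 to 1.98) the strongest rises by p and Cdh4 (-1.98 to -2.13) the strongest fall.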

How the data were processed

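The 95 libraries were sequenced from total RNA isolated with the miRNeasy Mini Kit, and libraries were made at Novogene UK, per the labels' protocols. The authors deposited raw counts per gene, and the submitters' processing notes name HISAT2 2.0.5, featureCounts 1.5.0-p3 and DESeq2. Genome build and strand setting are not given in the sources used here. Of the identifiers also in GENCODE M21 (GRCm38), 98.3% had the coordinates of the files. The 95 FPKM columns and 40 columns of the authors' comparisons were not used, because their decimal marks were lost. The members and lists were chosen with earlier results of these data known. Of the clustered members, the text names the 3 largest mean rises and falls between regions per cluster at 1 CPM or more, the C-type genes, the highest and the lowest, and beyond these some after their values were seen. In other comparisons it names calls or the smallest p-values.

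Library totals were 19589425 to 31236974 counts. Counts were filtered with filterByExpr, scaled by TMM and fitted with edgeR 4.0.16 in R 4.3.3 (quasi-likelihood test, Benjamini-Hochberg adjustment over all genes of a comparison, threshold 0.05), in 40 comparisons. Genotype and sex were fitted per line and region, region per line and sex, and line per region, always with all groups of that set. CPM for levels used the 20595 genes passing the filter over all libraries. Permutation tests were exact, two-sided and on log2(CPM + 0.5). Intervals of fold changes are at 95%. The scripts were tested on simulated data. Alternatives were no filter, median-of-ratios size factors, DESeq2 1.42.0, 1 surrogate variable (sva 3.50.0), limma 3.58.1 with quality weights, only the groups compared, a replicate block, leaving out single libraries and, chosen after seeing the data, leaving out the 3 libraries with the fewest detected genes.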

Additional observations from a re-analysis of the deposited data

Results flagged for a closer look

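Of 208 sets of a non-clustered gene's level or a cluster's sum within a group, 25 held a library whose gap to its nearest neighbour was large against the range of its group. Chance flags about 1 in 20 groups. Library Dl_B_M_K_639 (Dlx bed nucleus, male knockout) was the lowest of its group in Pcdh15 (14.4 CPM), Pcdh17 (57.4 CPM), Pcdh10 (160 CPM) and Pcdh7 (50.01 CPM), and in the alpha (19.2 CPM) and beta (125 CPM) sums. Library Dl_D_F_K_8 (Dlx hippocampus, female knockout) was the lowest in Pcdh17 (35.5 CPM) and in the alpha (0.605 CPM), beta (82.0 CPM) and gamma (21.3 CPM) sums. Library Dl_D_M_W_641 (Dlx hippocampus, male wild type) was the lowest in the alpha (29.4 CPM) and gamma (171 CPM) sums. These are the 3 libraries with the fewest detected genes.

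Single libraries elsewhere were flagged in 1 or 2 members or sums, near the rate of 1 in 20 that chance gives. Pcdh15 was at 22.2 CPM in N_B_F_W_474 and at 14.04 CPM in Dl_D_M_K_639. Pcdh20 was at 24.9 CPM in N_B_M_W_533. Pcdh9 and Pcdh7 were at 228 and 138 CPM in N_B_M_K_583, and Pcdh18 was at 8.30 CPM in N_D_M_K_583. Pcdh9 was also at 159 CPM in N_D_F_W_458 and at 155 CPM in N_D_F_K_498. Pcdh1 was at 274 CPM in Dl_B_F_K_18, and Pcdh18 at 14.2 CPM in N_B_F_K_518. The beta sum was 158 CPM in N_B_F_W_510, and the gamma sums were 326 CPM in N_D_F_K_476 and 416 CPM in Dl_B_F_W_1.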

How the results depend on the processing

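Of the counts of called members, those for genotype stayed at 0 under every alternative run, and DESeq2, median-of-ratios size factors and no filter kept each of the 40 counts within 1.5 times. The regional counts in Dlx females, 19 in wild types and 19 in knockouts, moved most: 34 and 36 without library Dl_D_F_K_8, 34 and 36 without the 3 libraries with the fewest detected genes, and 34 and 11 with only the 2 groups compared. The correlation check did not settle whether the replicate numbers pair the samples. Correlations of same-numbered libraries were low (8 of 42 pairs over 0.1, range -0.14 to 0.18). Of the 42 hippocampal libraries, 16 correlated best with their own number among the 6 bed nucleus libraries of the matching group. That is more than picks at random would give. The main regional fits treated the libraries as unpaired. With the number as a replicate block the wild-type counts were 31 and 47 in Nex males and females and 25 and 11 in Dlx males and females, and the knockout counts 29, 46, 34 and 14. Sex in wild types, with 0 calls by edgeR, gave 1 call in the Nex hippocampus with 1 surrogate variable, 1 in the Nex bed nucleus and 2 in the Dlx bed nucleus with limma, and in the Dlx hippocampus 3 with 1 surrogate variable, 6 with limma, 3 without library Dl_D_F_K_8 and 3 without the 3 libraries. Without Dl_D_F_K_8 and without the 3 libraries, Pcdh1 and Pcdhga5 were called in both, joined by Pcdhga4 and Pcdhb16 respectively. The line difference in the bed nucleus gave 0 calls in males with only the 2 groups compared and 2 without the 3 libraries, where females had 1. For these sex and line calls the shares of all genes called in the same fits are not given here, so the calls cannot be set against a background. The causes were not tested.

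Leaving out single libraries, wild-type regional counts ranged over 30 to 37, 41 to 48, 28 to 37 and 18 to 34 in Nex males, Nex females, Dlx males and Dlx females, and knockout counts over 29 to 38, 42 to 46, 37 to 41 and 14 to 36; genotype counts stayed at 0. Values that changed sign were all uncalled. With the replicate block these were Pcdhb1 in Dlx males (-0.24 against 0.00) and Pcdha2 in Dlx females (0.070 against -0.03). Leaving out single libraries, Pcdhb1 in Dlx males ranged from -0.27 to 0.27, Pcdha2 from -0.021 to 0.17 in Nex females and from -0.084 to 0.064 in Dlx females, and in Dlx females Pcdhb14 from -0.17 to 0.023 and Pcdhb6 from -0.20 to 0.020.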
